A study of Mus musculus with 30 samples.

Results

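The genes described here are the G2/M and mitotic genes, a list of 46 genes that carry a cell from the end of G2 through mitosis to division. They were chosen by name and not by a rule on measured values, though with earlier results of these data known. A gene was taken up when a probe set carried its symbol alone, and of several such probe sets the brightest on average was used. This gave 45 of the 46 listed genes, out of 19937 genes tested. Ccnb1, a cyclin of mitotic entry, had no probe set of its single symbol and was not analysed here. Top2a had 2 such probe sets and every other member had 1.

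Transcripts were measured on 30 Affymetrix Mouse Gene ST 1.0 arrays of 1 mouse B-cell lymphoma line and of lines made resistant from it. All cells carried the Eµ-Myc transgene, in which an immunoglobulin heavy chain enhancer drives Myc in B-lineage cells, were Cdkn2a-/- and came from the C57BL/6J background. They were cultured with irradiated Cdkn2a-/- mouse embryonic fibroblasts, whose RNA could enter the samples. Parental cells were untreated (0 h, n = 5) or had been in 750 nM mafosfamide, a form of cyclophosphamide that alkylates DNA in culture, for 6 h (n = 4), 12 h (n = 4), 24 h (n = 5) or 48 h (n = 5). The resistant lines R100, R500, R1000 and R4000 were taken at 100, 500, 1000 and 4000 nM from 1 dose escalation of the parental line, so they are successive stages and not separate derivations. There was 1 untreated array per resistant line, and 1 array after 24 h in 750 nM mafosfamide for R500, R1000 and R4000. The p-values therefore measure the spread between replicates of 1 lymphoma, not between tumours. In the comparisons of resistant lines, which had no replicates, that spread also holds differences between the successive lines or between their responses. Values are log2 expression, so a difference of 1 is a doubling. Each comparison was tested with limma, and p-values were adjusted over all 19937 genes by the Benjamini-Hochberg method with a threshold of 0.05.

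Entry into mitosis is driven by CDK1 bound to B-type and A-type cyclins, and is held back by the G2 checkpoint when DNA is damaged. Polo-like and Aurora kinases then build the spindle, the spindle checkpoint delays anaphase until every kinetochore is attached, and the anaphase-promoting complex with CDC20 releases the sister chromatids. In mammalian cells these genes are transcribed together late in the cycle: the DREAM complex represses them in quiescent or p53-arrested cells through its LIN54 subunit, which binds the cell cycle genes homology region, while NF-Y, B-MYB and FOXM1 activate them.

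Most of the promoters examined hold both a homology region and an NF-Y box, as counted below, but not all do. The windows of 4 members are printed because 3 of them carry both elements and the fourth carries neither. Each line gives the 120 bases before the RefSeq transcription start of the GRCm38.p6 assembly, 5′ to 3′ on the strand of the gene. Capitals mark the cell cycle genes homology region TTTGAA or its variant TTCGAA, and the NF-Y box CCAAT, each read on both strands with every match marked. Cdk1 (chr10:69352913-69353032, minus strand) encodes the kinase of mitotic entry. Cdc20 (chr4:118437344-118437463, minus strand) encodes the activator of the anaphase-promoting complex. Top2a (chr11:99024190-99024309, minus strand) encodes the topoisomerase that untangles chromosomes. Birc5 (chr11:117849117-117849236, plus strand) encodes survivin, a subunit of the chromosomal passenger complex.
Cdk1: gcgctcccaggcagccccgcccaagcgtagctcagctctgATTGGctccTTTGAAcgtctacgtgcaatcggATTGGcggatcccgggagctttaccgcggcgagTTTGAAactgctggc
Cdc20: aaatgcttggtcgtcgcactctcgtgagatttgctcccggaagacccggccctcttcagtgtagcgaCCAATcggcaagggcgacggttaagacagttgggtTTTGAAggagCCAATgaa
Top2a: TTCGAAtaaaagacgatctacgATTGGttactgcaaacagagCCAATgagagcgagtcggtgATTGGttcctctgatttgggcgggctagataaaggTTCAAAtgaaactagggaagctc
Birc5: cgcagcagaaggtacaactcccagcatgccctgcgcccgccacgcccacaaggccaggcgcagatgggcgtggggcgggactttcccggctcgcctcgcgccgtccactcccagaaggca
In Cdk1 a TTTGAA began 15 bases and another 71 bases before the start. In Cdc20 the match began 18 bases and in Top2a 23 bases before the start. In Plk1 and Aurka it lay after the start, beginning 30 and 32 bases into the transcript. No match in Birc5 says only that these letters are not in the printed stretch.

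Windows from 250 bases before to 50 bases after the start were given for 38 of the 46 listed genes. TTTGAA on either strand was in the windows of 27 of these 38 genes (71.1%), against 20.2% of all 27025 genes with a window. Within 50 bases of the start on either side it was found in 24 of 38 (63.2%), against 5.72% of all genes. CCAAT was in 29 of 38 (76.3%), against 41.1%, and both elements together were in 24 of 38 (63.2%), against 7.97%. The variant TTCGAA was in 4 of 38 (10.5%), against 1.8%. None of these motifs was in the windows of 6 of 38 (15.8%), against 46.9%. Other mitotic genes resembled the members, with TTTGAA in 23 of 35 windows (65.7%). In genes of G1/S and DNA replication it was in 2 of 28 (7.14%), although CCAAT was in 20 of 28 (71.4%). A match describes the sequence and does not show that a factor is bound there.

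**Figure D1:**
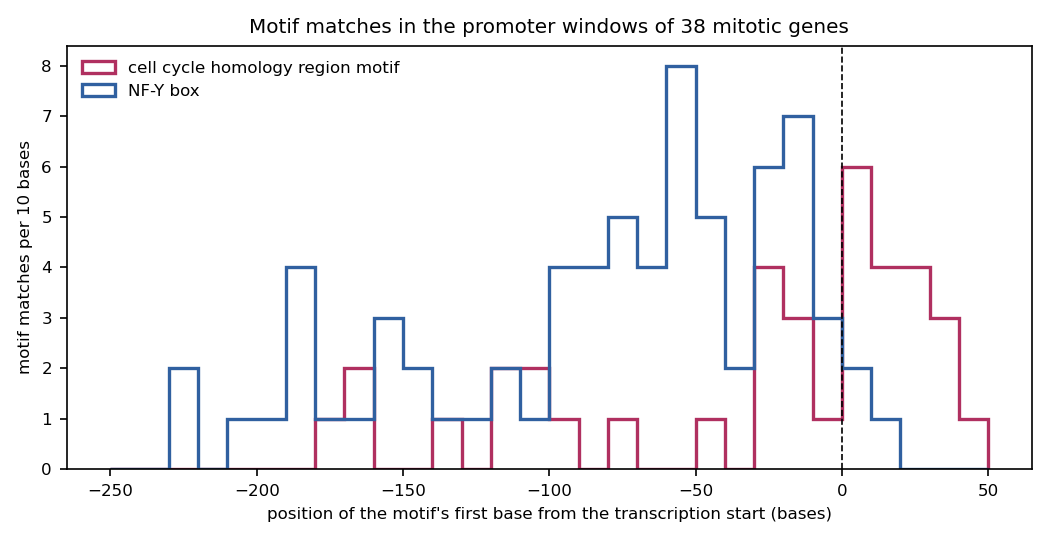
Positions of the motif matches in the promoter windows of 38 mitotic genes, with a match counted once in each window. The horizontal axis is the distance in bases of the motif's first base from the transcription start, and the vertical axis is the number of matches per 10 bases. Of the TTTGAA matches, 18 began in the first 50 bases of the transcript and 9 in the 50 bases before the start, while 25 NF-Y boxes began 51 to 100 bases and 23 began 1 to 50 bases before it.

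All 45 members were well detected. Their means over the 30 arrays lay between 9.44 (Pttg1) and 13.15 (Ccnb2) with a median of 11.46, and the median of all genes was 7.55. Levels of different genes come from different probes and are not ordered here. The B-lineage label was borne by its markers, as all 11 measured B-cell markers had means of at least 9 and their mean per array lay between 11.92 and 12.59. No marker of T and NK cells, myeloid cells or erythroid cells had a mean of 9, whereas 9 of 28 fibroblast markers did. In these bulk cultures fewer cells in mitosis and less RNA per cell cannot be told apart.

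Among the genes of mitotic entry, Cdk1 stood at 12.81 ± 0.23 at 0 h, 12.81 ± 0.05 at 6 h, 12.86 ± 0.05 at 12 h, 12.88 ± 0.06 at 24 h and 12.89 ± 0.10 at 48 h (SD). It was 12.75 ± 0.08 in the 4 untreated resistant lines and 12.88 ± 0.05 in the 3 treated ones. Foxm1, an activator of this gene set, stood at 11.57 ± 0.14, 11.67 ± 0.05, 11.76 ± 0.10, 11.52 ± 0.13 and 11.50 ± 0.10 over the same parental times, at 11.51 ± 0.06 in untreated and at 11.50 ± 0.02 in treated resistant lines. For Cdk1 all other group means lay within the range of the 0 h arrays, 12.59 to 13.15, and for Foxm1 all but the 12 h mean lay within theirs, 11.37 to 11.75.

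Of the mitotic kinases, Plk1, which acts from mitotic entry to cytokinesis, stood at 12.54 ± 0.27 at 0 h, 12.68 ± 0.07 at 6 h, 12.71 ± 0.06 at 12 h, 12.64 ± 0.08 at 24 h and 12.74 ± 0.08 at 48 h, with 12.74 ± 0.06 in untreated and 12.72 ± 0.02 in treated resistant lines. Aurka, the Aurora kinase of the spindle poles, stood at 11.16 ± 0.35, 11.46 ± 0.16, 11.51 ± 0.13, 11.53 ± 0.15 and 11.47 ± 0.20 over the parental times, with 11.57 ± 0.05 in untreated and 11.60 ± 0.02 in treated resistant lines. Both kinases had their lowest mean and their largest SD in the untreated parental cells. Bub1, a kinase of the spindle checkpoint, stood at 11.86 ± 0.22, 11.94 ± 0.17, 12.02 ± 0.14, 11.88 ± 0.11 and 11.89 ± 0.11, with 11.98 ± 0.05 and 11.91 ± 0.14 in the untreated and treated resistant lines.

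Birc5 stood at 10.89 ± 0.17, 10.92 ± 0.08, 11.09 ± 0.07, 10.90 ± 0.07 and 10.95 ± 0.09 over the parental times, with 10.91 ± 0.09 and 10.94 ± 0.05 in the untreated and treated resistant lines. Cdc20 stood at 11.39 ± 0.24, 11.51 ± 0.20, 11.47 ± 0.16, 11.51 ± 0.07 and 11.46 ± 0.15, with 11.55 ± 0.06 and 11.55 ± 0.04 in the resistant lines. Neither gene had a group whose mean left the range of the 0 h arrays. Top2a stood at 12.86 ± 0.06, 12.90 ± 0.05, 12.90 ± 0.02, 12.80 ± 0.16 and 12.82 ± 0.06, with 12.81 ± 0.05 and 12.76 ± 0.07 in the resistant lines. Mki67, which encodes the proliferation marker Ki-67 that coats mitotic chromosomes, stood at 12.70 ± 0.04, 12.76 ± 0.03, 12.78 ± 0.08, 12.67 ± 0.15 and 12.67 ± 0.11, with 12.74 ± 0.04 and 12.63 ± 0.11 in the resistant lines. These last genes, unlike most members, were tight at 0 h and more spread at 24 h.

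**Figure D2:**
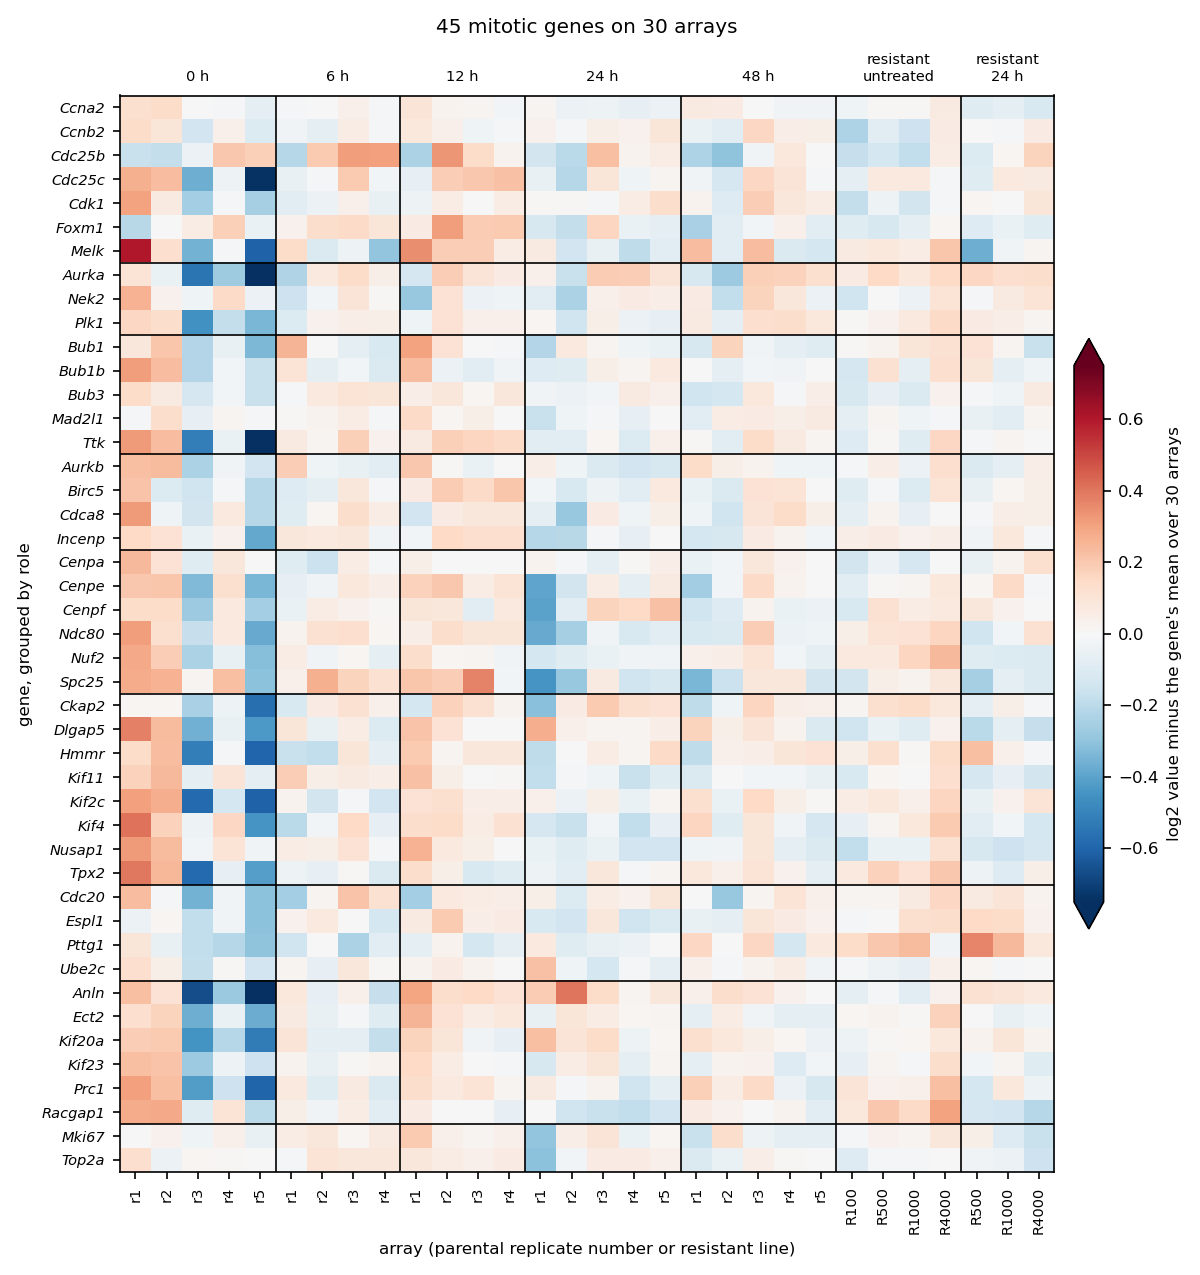
Log2 value of each of the 45 mitotic genes (rows, grouped by role from entry to chromosome structure) on each of the 30 arrays (columns), minus the mean of that gene over all arrays, with blue for lower and red for higher. The untreated parental arrays r3 and r5 are blue in nearly every row and r1 and r2 red. Smaller shifts that run across most rows are seen at 48 h in r3, with 42 of 45 members above its group mean, and in the untreated lines R4000, with 42 above, and R100, with 42 below.

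The untreated parental arrays differed among themselves by more than the group means differed from each other. The mean over the 45 members was 11.60, 11.53, 11.17, 11.40 and 11.09 on the 5 arrays at 0 h. On the third and the fifth array 44 of 45 members lay below the 0 h mean, on the first 42 and on the second 40 lay above it. The mean over the members on the other 25 arrays lay between 11.33 and 11.51, inside the range of the 0 h arrays. On every one of these 25 arrays 34 to 42 of the 45 members had values within the range of the 0 h arrays, and 20 members did so on all 25.

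The genes with the widest 0 h spread belonged to several roles. Anln encodes anillin, the scaffold of the contractile ring in cytokinesis, and stood at 11.07, 10.95, 10.18, 10.56 and 9.60 on the 5 untreated parental arrays, an SD of 0.60, against an SD of 0.06 to 0.14 at the later times. Ttk, the checkpoint kinase MPS1, had an SD of 0.47 at 0 h, Melk, a kinase whose transcript is periodic in the cell cycle, 0.46, and Kif2c, a microtubule-depolymerising kinesin at centromeres, 0.44. At the other end, Mki67 had an SD of 0.04 and Top2a of 0.06 at 0 h.

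The median SD of the members was 0.22 at 0 h and 0.08, 0.08, 0.09 and 0.09 at 6, 12, 24 and 48 h. For 39 of the 45 members the SD was largest at 0 h, as it was for 51.3% of all genes and for 60.4% of the 5768 other genes in the same range of mean level. It was over 3-fold the median of the later SDs for 17 members, against 8.24% of all genes and 13.6% of those in the same range. The exceptions, with a larger SD at some later time, were Cdc25b, Nek2, Cenpf, Ube2c, Top2a and Mki67. As a description, genes of the same range of level moved in the same direction on these arrays, by less on all but the fourth: their median deviation from the 0 h mean was 0.12, 0.04, -0.03, 0.07 and -0.18 on the 5 arrays, and that of the members 0.22, 0.17, -0.16, 0.04 and -0.22. The fifth array stood apart in its whole distribution, whose interquartile range was 2.97, where all others lay at 3.36 to 3.75. The third did not, at 3.41. The fifth array also had the lowest B-cell marker mean at 0 h, 11.92 against 12.11 to 12.59, and the fibroblast marker means were 8.10 to 8.64 on the 5 arrays. The part of these in the spread of the members was not tested.

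**Figure D3:**
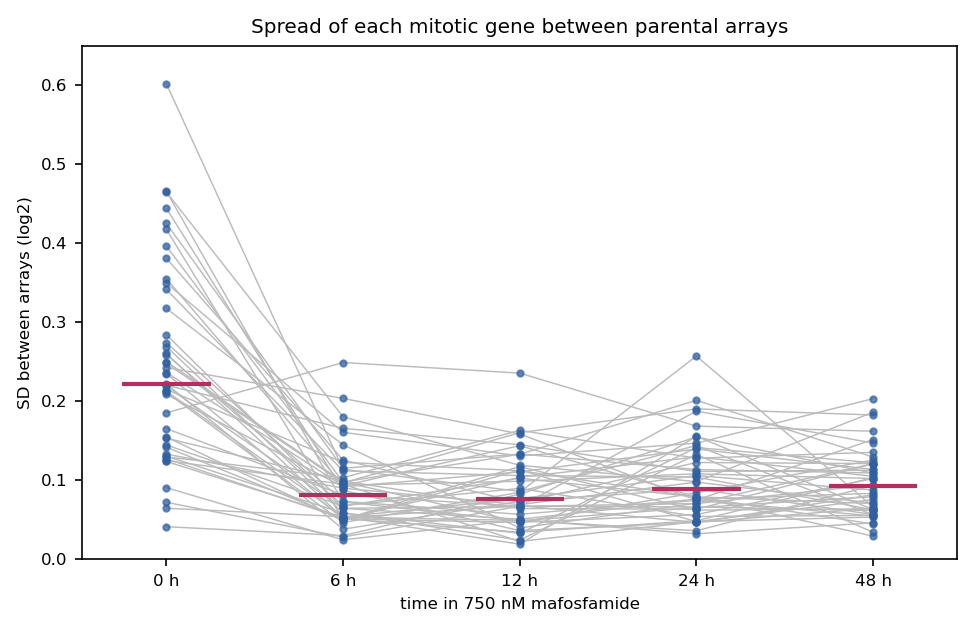
SD between parental arrays (log2, vertical axis) of each of the 45 mitotic genes at each time in mafosfamide (horizontal axis). Points are genes, grey lines join the values of 1 gene, and red bars are the medians, 0.22 at 0 h and 0.08 to 0.09 afterwards.

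To ask whether mafosfamide altered the mitotic programme within a cell cycle, the earliest time was compared with 0 h. At 6 h no member passed the test, where 0.01% of all genes passed as higher and 0.01% as lower (limma, 2 genes each). At an unadjusted p under 0.05 only Aurka passed, as higher, against 3.29% of all genes higher and 1.84% lower. The arrays of the 2 times overlapped for every member, and lay apart for 0.657% of all genes as higher and 0.436% as lower. The median of the members was 0.04 and 34 of 45 lay above 0, against a median of -0.01 for all genes. Over all settings run, described below, the median lay between -0.01 and 0.10 and the count above 0 between 17 and 40. By the numbers of the sample descriptions, which give the first 0 h array no partner at 6 h, 38 members were lower in number 2. In numbers 3, 4 and 5, members were mostly higher, with 44, 30 and 44 above 0. The largest differences were those of Anln (0.34), Aurka (0.31) and Ttk (0.23), and the lowest those of Cenpa (-0.12), the centromeric histone, Nek2 (-0.09), a centrosome kinase, and Kif4 (-0.08), a chromokinesin. For all 45 members the 95% interval of the difference stayed within a 2-fold change in either direction, and for 43 within 1.5-fold.

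At 12 h, 38 of 45 members lay above 0 with a median of 0.08, against -0.03 for all genes, and none passed the test (limma; 0.466% of all genes passed as higher, 0.0451% as lower). By the numbers of the sample descriptions, the first 0 h array, the highest in member mean (11.60), has no partner at 12 h. In number 2, 33 of 45 members were lower at 12 h (median -0.04). Higher were 45 in number 3, 31 in number 4 and 43 in number 5 (medians 0.31, 0.03 and 0.32). The 0 h arrays of numbers 2 to 5 stood at member means of 11.53, 11.17, 11.40 and 11.09. At an unadjusted p under 0.05, 6 members passed as higher (Anln, Aurka, Ect2, Espl1, Birc5 and Foxm1), against 6.91% of all genes, and none as lower, against 5.02%. Anln stood 0.54 higher (SE 0.19; adjusted p = 0.258 by limma) at 11.14, 10.98, 10.99 and 10.95 on the 4 arrays. With the replicate block of the sample descriptions its adjusted p was 0.0447 by limma, where 2.93% of all genes passed as higher, and 0.0954 once the fifth 0 h array was also left out, a setting added after seeing the data. The first and the second array at 0 h, at 11.07 and 10.95, lay within that range, and the third, the fourth and the fifth lay below it. Aurka stood 0.35 higher (SE 0.14; adjusted p = 0.342) and Ttk 0.29 higher, while Nek2 (-0.13), Racgap1 (-0.07) and Cenpa (-0.06) had the lowest differences. Espl1, which encodes separase, the protease that cuts cohesin at anaphase, was the only member whose 12 h arrays all lay above the 0 h arrays, against 1.71% of all genes, and none had them all below, against 1.27%. By role, the share above 0 ran from 2 of 3 mitotic kinases and 6 of 8 motor and spindle genes to all 4 of anaphase, all 4 of the chromosomal passenger complex and both of chromosome structure, and the median from 0.06 for chromosome structure to 0.21 for cytokinesis.

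At 24 h the members were split, with 23 above and 22 below 0, a median of 0.02 against -0.04 for all genes, and none past the threshold (limma), while 4.35% of all genes passed as higher and 2.43% as lower. At an unadjusted p under 0.05, 3 members were higher (Anln, Aurka and Kif20a), against 12.4% of all genes, and 4 lower (Nusap1, Racgap1, Kif11 and Spc25), against 17.1%. All 45 intervals stayed within 2-fold and 43 within 1.5-fold. All 4 genes of anaphase lay above 0. Of the 6 kinetochore genes 5 lay below 0, with Spc25 and Ndc80, subunits of the NDC80 complex that holds microtubules, among them.

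Nusap1 encodes a spindle protein that bundles microtubules, and came nearest to the threshold. It stood at 12.32, 12.24, 11.98, 12.10 and 11.98 at 0 h and at 11.95, 11.91, 11.95, 11.86 and 11.86 at 24 h. The groups did not overlap, which held in this direction for 2.6% of all genes and for no other member. No member had all its 24 h arrays above those of 0 h, against 1.98% of all genes. The difference was -0.22 (SE 0.07, 95% interval -0.36 to -0.08; adjusted p = 0.0531 by limma). It was lower at 24 h within each of the 5 replicate numbers, the only member of which this held, against 11.6% of all genes.

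Anln differed in the other direction, at 11.04, 11.24, 10.98, 10.87 and 10.93 at 24 h against the 0 h values above. The difference was 0.54, 1.45-fold (SE 0.17, interval 0.18 to 0.90; adjusted p = 0.0617 by limma). Its 24 h values overlapped those of the first and second 0 h arrays. Aurka stood at 11.49, 11.29, 11.65, 11.64 and 11.56 at 24 h against 11.56, 11.41, 10.91, 11.19 and 10.71 at 0 h, a difference of 0.37 (SE 0.13; adjusted p = 0.0793). By replicate number Aurka differed by -0.06 and -0.12 in numbers 1 and 2 and by 0.74, 0.45 and 0.85 in numbers 3, 4 and 5, whereas Anln differed by -0.04 in number 1 and by 0.29 or more in the others. Kif20a, a kinesin of cytokinesis, stood 0.25 higher (adjusted p = 0.144). Racgap1, a subunit of centralspindlin that positions the cleavage furrow, stood at 12.22, 12.22, 11.84, 12.04 and 11.74 at 0 h and at 11.94, 11.79, 11.77, 11.75 and 11.79 at 24 h, a difference of -0.20 (SE 0.08; adjusted p = 0.0977). Spc25 differed by -0.28 (adjusted p = 0.115).

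The fibroblast markers differed between these times as well, with a mean of 8.10 to 8.64 on the 0 h arrays and of 8.31 to 9.86 at 24 h and 14 of 28 markers past the threshold, all as higher. With that mean as a covariate no member passed. The call at 24 h depended on how the arrays were matched. The sample descriptions carry a replicate number, which the labels do not tie to a culture followed over time, and by it the deviations of arrays at 0 and 24 h correlated above 0.1 in all 5 pairs (0.13 to 0.34). With that number as a replicate block, 6 members passed (limma): Anln (adjusted p = 0.0161), Kif20a (0.0369) and Aurka (0.0422) as higher, and Nusap1 (0.0140), Racgap1 (0.0225) and Kif11 (0.0338), the bipolar kinesin of the spindle, as lower. In the same fit 11.8% of all genes passed as higher and 11.9% as lower, so that the 3 members of 45 in each direction were a smaller share than the background. Without the block, leaving out single 0 h arrays gave between 0 and 3 calls: Aurka, Kif20a and Anln as higher without the first (7.04% of all genes), Anln as higher without the second (3.31%), Nusap1 as lower without the fourth (7.01%), and Spc25, Nusap1 and Racgap1 as lower without the fifth array (0.953%).

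Paired by replicate number, the members differed from their 0 h arrays in opposite directions. From 0 to 24 h, 41 of 45 members were lower in number 1 (median -0.29) and 41 in number 2 (-0.20), 42 were higher in number 3 (0.24) and 41 in number 5 (0.28), and number 4 had 21 higher and 24 lower (-0.02). Other genes of the same range of level had medians of -0.08, -0.04, 0.13, 0.00 and 0.25 in numbers 1 to 5. At 48 h, compared with the same 0 h arrays, 44, 42 and 21 members were lower in numbers 1, 2 and 4, and 42 and 38 were higher in numbers 3 and 5. The later arrays of the 5 numbers were close to each other, at member means of 11.33, 11.34, 11.44, 11.37 and 11.42 at 24 h. The 0 h arrays stood at 11.60, 11.53, 11.17, 11.40 and 11.09, so these directions largely restate the 0 h spread.

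**Figure D4:**
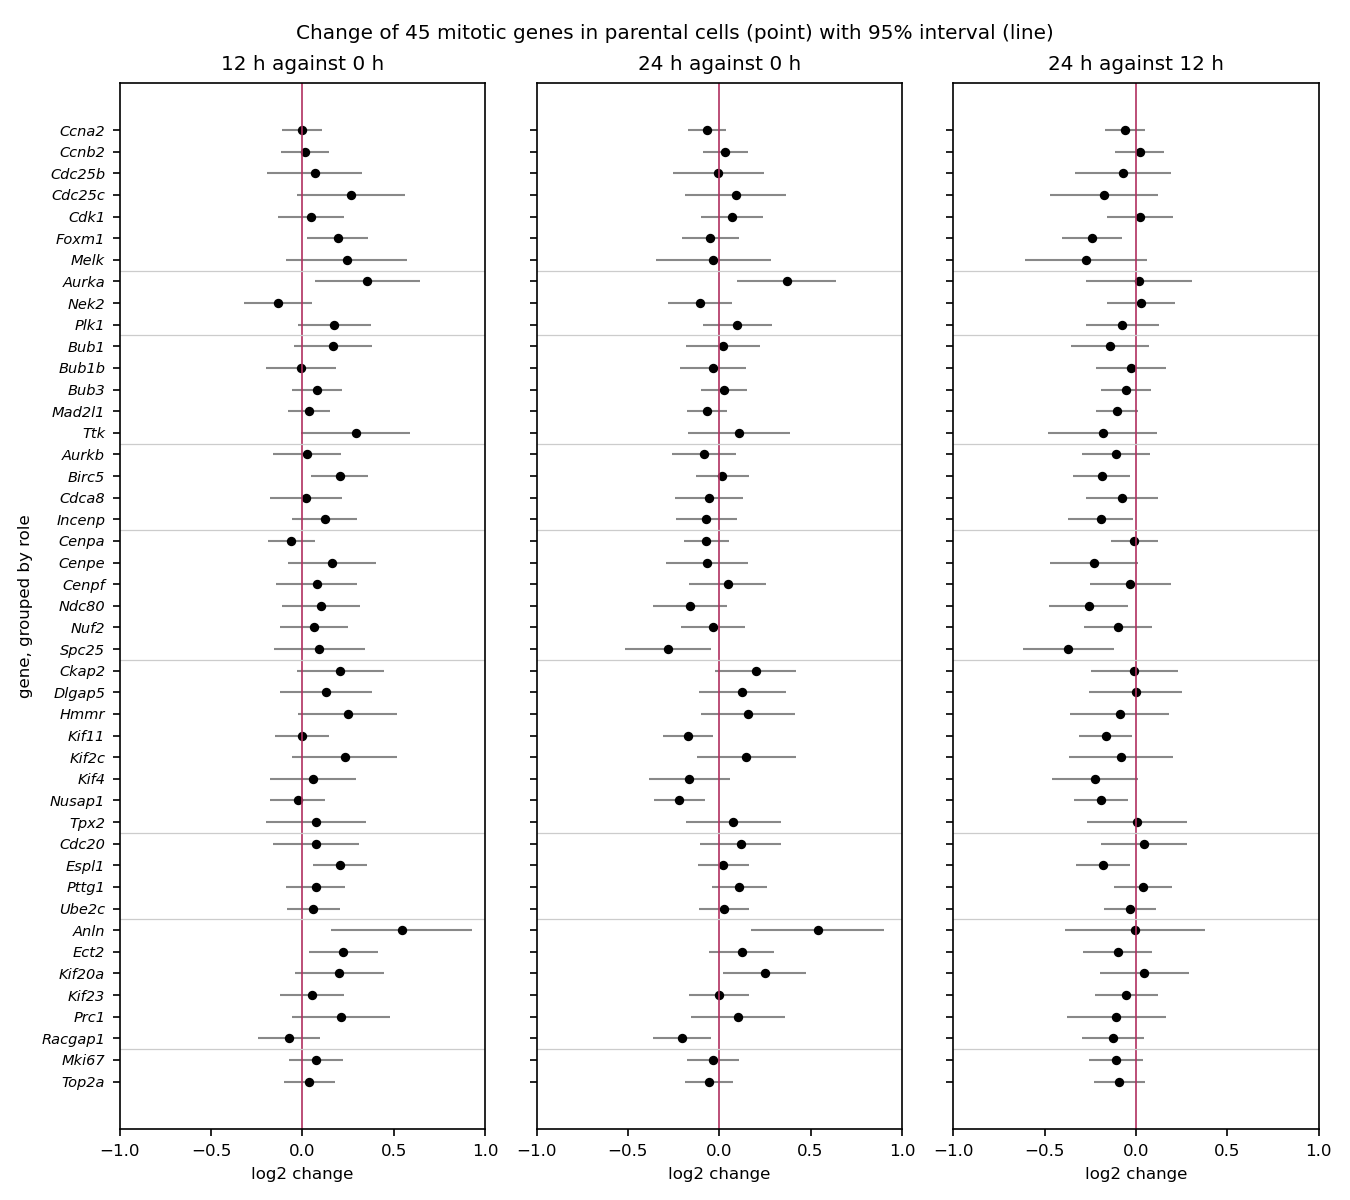
Log2 change of each of the 45 mitotic genes (rows, grouped by role) in parental cells at 12 h against 0 h, 24 h against 0 h and 24 h against 12 h, with points for the fitted change and lines for its 95% interval. Against 0 h, Anln and Aurka lie farthest to the right in both panels, at 0.54 and 0.35 at 12 h and at 0.54 and 0.37 at 24 h, and between 12 and 24 h 37 of 45 points lie left of 0.

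Between 12 and 24 h, 37 of 45 members lay lower at 24 h, with a median of -0.09 against -0.02 for all genes. These differences do not use the 0 h values, but their SE and p-values come from the fit of all parental arrays and so include the wide 0 h spread. None passed the test (limma), where 0.0251% of all genes passed as higher and 0.01% as lower. At an unadjusted p under 0.05, 8 members were lower (Spc25, Foxm1, Ndc80, Birc5, Nusap1, Incenp, Espl1 and Kif11), against 4.33% of all genes, and none higher, against 6.01%. For 6 members (Ttk, Ndc80, Kif11, Kif2c, Kif4 and Nusap1) the 24 h arrays all lay below the 12 h arrays, against 2.98% of all genes, and for none all above, against 1.94%. With array weights 8 members passed as lower, where 4.49% of all genes did.

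Spc25 had the lowest difference of this step, at 10.28, 10.26, 10.44 and 10.05 at 12 h and at 9.63, 9.79, 10.14, 9.92 and 9.95 at 24 h. The arrays of the 2 times overlapped only between the lowest at 12 h and the highest at 24 h. The difference was -0.37 (SE 0.12; adjusted p = 0.207 by limma). Melk (-0.27, SE 0.16) and Ndc80 (-0.26, SE 0.10) followed. Ndc80 stood at 10.08, 10.16, 10.12 and 10.12 at 12 h and at 9.65, 9.78, 9.92 and 9.94 on 4 of the 24 h arrays, and the remaining one, at 10.0003, also lay below every 12 h array. Foxm1 differed by -0.24 (adjusted p = 0.216). All 6 kinetochore genes, all 5 spindle checkpoint genes and all 4 genes of the chromosomal passenger complex lay below 0. The highest differences, Kif20a (0.05), Cdc20 (0.04) and Pttg1 (0.04), which encodes securin, the inhibitor of separase, were near 0. The fibroblast marker mean moved in the same step, from 8.03 to 8.54 on the 12 h arrays to 8.31 to 9.86 on the 24 h arrays, with a median marker difference of 0.74 and 26 of 28 markers above 0. With that mean as a covariate no member passed.

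At 48 h no member passed against 0 h (limma; 0.11% of all genes passed as higher and 0.14% as lower), with 27 of 45 above 0 and a median of 0.02. At an unadjusted p under 0.05, Anln (0.43), Aurka (0.32), Plk1 (0.20) and Pttg1 (0.18) were higher, against 5.23% of all genes, and Nusap1 (-0.15) lower, against 6.44%. In no member did the 2 groups lie apart, where they did for 0.672% of all genes as higher and for 0.948% as lower. Spc25 (-0.19) and Kif11 (-0.11) had, with Nusap1, the lowest differences. From 24 to 48 h 30 of 45 members lay above 0, with a median of 0.05 against 0.02 for all genes. In this step 27 of 28 fibroblast markers lay below 0, with a median of -0.51 and none past the threshold, and no member passed with their mean as a covariate. None passed the test (limma; 0.0251% and 0.0803% of all genes passed as higher and lower) or an unadjusted p under 0.05, which 2.38% and 4.38% of all genes did. None had its arrays of the 2 times apart, against 0.868% of all genes as higher and 0.928% as lower. All 45 intervals of this step stayed within 1.5-fold. Ndc80 (0.15), Racgap1 (0.13) and Kif4 (0.11) had the highest and Anln (-0.11), Cdc25b (-0.09) and Cenpf (-0.07) the lowest differences.

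**Figure D5:**
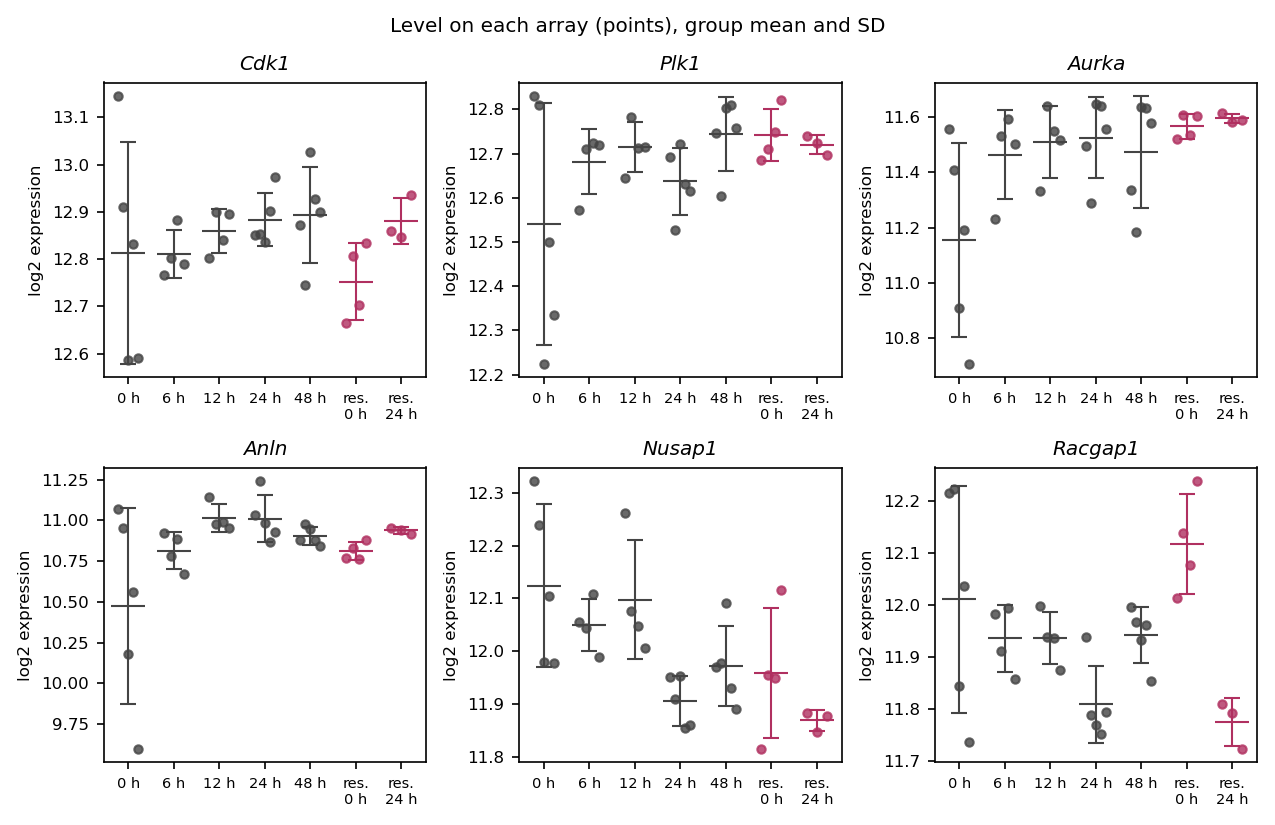
Log2 expression of 6 mitotic genes on each array (points) with the group mean and SD (bars), for parental cells at 0 to 48 h in mafosfamide (grey) and resistant lines without drug and after 24 h in drug (red). Cdk1, Plk1, Aurka and Anln are widest at 0 h, Nusap1 at 24 h lies below all 0 h arrays, and Racgap1 in treated resistant lines, at 11.72 to 11.81, lies below the untreated ones, at 12.01 to 12.24.

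To determine whether resistance came with another level of the mitotic programme, the 4 resistant lines without drug were set against the 5 untreated parental arrays. No member passed the test (limma; 0.0201% of all genes passed as higher and 0.0552% as lower), with 29 of 45 above 0 and a median of 0.03. Of all genes 48.0% lay above 0, with a median of -0.01. Over all settings run the median of the members lay between -0.012 and 0.095 and their count above 0 between 20 and 34. At an unadjusted p under 0.05, Aurka and Pttg1 were higher, against 4.18% of all genes, and none lower, against 2.92%. All 45 intervals stayed within 2-fold and 37 within 1.5-fold.

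Aurka stood at 11.52, 11.61, 11.53 and 11.60 in R100, R500, R1000 and R4000, against the 0 h values above. The lines lay above 4 of the 5 parental arrays and on both sides of the remaining one, the first, at 11.56. The difference was 0.41 (SE 0.15; adjusted p = 0.575 by limma). Pttg1 stood at 9.58, 9.64, 9.68 and 9.42 in the 4 lines and at 9.53, 9.39, 9.26, 9.23 and 9.14 in the parental arrays, a difference of 0.27 (SE 0.10; adjusted p = 0.555). Only R4000 lay within the parental range. Anln differed by 0.34 (SE 0.25). Ckap2, which encodes a spindle protein, was the only member whose lines all lay above the parental arrays, against 2.32% of all genes. The gap was narrow, with the lowest line, R100, at 10.3694 and the highest parental array at 10.3676. No member had its lines all below, against 1.33%. The lowest differences were those of Nusap1 (-0.17), Cenpa (-0.15) and Cdc25b (-0.11), a phosphatase that activates CDK1. All 6 genes of cytokinesis and all 4 of anaphase lay above 0, and 5 of 7 of mitotic entry below. The same 0 h arrays enter the difference of responses below with the opposite sign. There, none of the genes of cytokinesis or anaphase lay above 0. Among the lines the mean over the members was 11.37 in R100, 11.44 in R500, 11.41 in R1000 and 11.51 in R4000. No member was among the 1000 probe sets at either end of the covariance with the order of resistance, or of that with time, out of 34760.

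In the resistant lines 24 h of mafosfamide gave no call among the members (limma; 0.0251% of all genes passed as higher and 0.00502% as lower). Each treated line was set against its own untreated array. The SE, intervals and p-values come from a fit that also holds the parental 0 h and 24 h arrays, and so include the wide 0 h spread. With only the resistant arrays 58 genes passed as higher and 18 as lower (limma), against 5 and 1, and no member did. R4000 had 35 of 45 members below 0 (median -0.10, against 0.00 for all genes), R500 had 28 (-0.03, against -0.03) and R1000 had 22 (0.01, against -0.01). In all 3 lines 17 members were lower, against 21.5% of all genes, and 6 were higher (Ccnb2, Cdk1, Cdc25b, Bub3, Pttg1 and Anln), against 14.5%. For 12 members all 3 treated arrays lay below all 3 untreated ones, against 11.4% of all genes, and these held 5 of the 8 motor and spindle genes (Kif11, Kif4, Tpx2, Nusap1 and Ckap2) beside Racgap1, Ect2, Nuf2, Spc25, Ccna2, Melk and Top2a. For Cdk1 and Anln they lay above, against 6.92%. The fibroblast marker mean was lower as well, at 7.91 to 8.23 in the treated and 8.29 to 8.48 in the 4 untreated lines, with 27 of 28 markers below 0, a median of -0.18 and none past the threshold. With that mean as a covariate no member passed either. None of the 8 motor and spindle genes lay above 0 in the fit without it.

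Racgap1 had the lowest difference. It stood at 12.14, 12.08 and 12.24 in untreated R500, R1000 and R4000 and at 11.81, 11.79 and 11.72 after 24 h in drug. The differences were -0.33, -0.28 and -0.51, and the treated and untreated lines did not overlap. The fitted difference was -0.38 (SE 0.12, interval -0.64 to -0.11), 1.30-fold lower, and at an unadjusted p under 0.05 it was the only member to pass, where 1.49% of all genes did as lower. Its adjusted p was 1.00 by limma, and with array weights 0.0257, where 0.346% of all genes passed as lower. Nuf2, another subunit of the NDC80 complex, followed at -0.26, with 11.54, 11.64 and 11.72 untreated and 11.38, 11.37 and 11.37 treated. Melk differed by -0.24. The highest differences were those of Anln (0.12), Cdc25b (0.11) and Cdk1 (0.10).

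The response of the resistant lines was then set against that of the parental cells at 24 h. No member passed the test of the difference or an unadjusted p under 0.05, and 0 of all 19937 genes passed the former (limma; 2.76% of genes were higher and 5.08% lower at the unadjusted p). The median of the members was -0.03 with 30 of 45 below 0. The fibroblast markers had a median of -0.96 in this difference, with 26 of 28 below 0 and 17 past an unadjusted p under 0.05, and no member passed with their mean as a covariate. Anln (-0.42, SE 0.35), Aurka (-0.36, SE 0.22) and Ckap2 (-0.32, SE 0.20) had the lowest differences, and Cenpa (0.16), Nek2 (0.14) and Cdc25b (0.12) the highest. Intervals stayed within 2-fold for 44 members and within 1.5-fold for 31, with Anln the exception at 2-fold. This comparison uses the same 0 h arrays as those above, and its limits are the widest of the 9 comparisons.

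Some genes that act around the members did change. Of all genes, 0.466% passed as higher and 0.0451% as lower at 12 h. At 24 h, 4.35% passed as higher and 2.43% as lower. Psrc1, which encodes a spindle protein and is a target of p53 in mouse and human cells, rose by 1.80 at 12 h (adjusted p = 2.99e-09 by limma) and 1.41 at 24 h, and dropped by 0.91 from 24 to 48 h. Gtse1, a G2 and S-phase gene that is also a p53 target, rose by 0.79 at 12 h and 0.36 at 24 h. These were the only 2 of 42 other mitotic genes to pass at 12 h, and at 24 h 2 more, Cdca3 (-0.23) and Hmgb2, passed as lower. Of 16 genes of the G2 checkpoint and the brakes on CDK1, Ccng1 rose by 0.92 at both times, and at 24 h Ccng2 (-0.92) and Pkmyt1 (-0.38), the kinase that inhibits CDK1 at membranes, fell. At 48 h against 0 h Ccng2 again passed as lower (-0.79), as 0.14% of all genes did, and in 12 of 20 other settings. From 24 to 48 h Ccng1 passed as lower (-0.55), as 0.0803% of all genes did, and in 19 of 20 other settings. Of 22 genes of the transcriptional control of mitotic genes, only Rbl2, the pocket protein of DREAM, passed, rising by 0.50 at 12 h (adjusted p = 0.0268), and it was no longer past the threshold in 6 of its 20 other settings.

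At 24 h, 4 of 34 genes of G1/S and DNA replication passed, all as higher, against 4.35% of all genes. These were Ccnd2 (1.04), Orc1 (0.47), Ccnd3 (0.39) and Mcm10. With the fibroblast marker mean as a covariate Ccnd2 was at 0.48 (adjusted p = 0.276). Anapc15 (-0.29) of 15 subunits of the anaphase-promoting complex and Stag1 (-0.26) of 18 genes of cohesin and condensin passed as lower. Of all genes 2.43% passed as lower. With the same covariate at 24 h Anapc15 (adjusted p = 0.286 by limma), Stag1 (0.189), Orc1 (0.0641), Pkmyt1 (0.114), Gtse1 (0.138) and Cdca3 (0.245) did not pass either, and over the 22 other settings Anapc15 passed in 11 and Stag1 in 10. In untreated resistant lines Ccng2 was the only gene of these 6 lists to pass, at -0.98 (adjusted p = 0.0166 by limma). There, 0.0552% of all genes passed as lower. Ccng2 passed in 11 of 17 other settings, with values between -1.06 and -0.27 and adjusted p up to 0.881. In the treated resistant lines and in the difference of responses no gene of these lists passed the test.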

How the data were processed

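RNA of 30 samples was hybridised to 1 Affymetrix Mouse Gene ST 1.0 array each. The authors deposited log2 values per probe set, made with justRMA (affy), a robust multi-array average that corrects background and gives every array the same distribution of probe intensities. Differences in RNA content per cell are lost by this step, and those of dim probe sets shrink. The mm9 build is named in the submitters' processing notes. Of 34760 probe sets, 21640 carried 1 gene symbol in the platform annotation, 1321 carried several and 11799 were unnamed here. The probe set of highest mean was kept for each of the 954 genes with several, which left 19937 genes. The coordinates and promoters come from RefSeq on GRCm38.p6, a different build, and do not touch the expression values.

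Fits were made with limma 3.58.1 in R 4.3.3 (lmFit and eBayes). The 23 parental arrays were fitted together for 6 comparisons of times. The 4 untreated resistant lines were fitted with the 5 parental arrays at 0 h. The treated lines and the difference of responses came from 1 fit of 16 arrays in which every line had its own term. Intervals are 95% intervals of that fit. These fits were tested on simulated data of the same size, with independent noise of equal spread in every group. That test does not cover the wider 0 h spread, the replicate numbers or the alternative settings. The precision is limited by the number of arrays, since there is no read depth. Groups came from the sample labels.

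The members, the 6 other lists and the settings were chosen with earlier results of these data known. Named genes are 9 fixed members (Cdk1, Plk1, Aurka, Cdc20, Bub1, Birc5, Mki67, Top2a and Foxm1), the 3 highest and 3 lowest differences of each comparison, and up to 3 genes past the threshold in each other list. Members past an unadjusted p under 0.05 or with groups apart, members of wide 0 h spread, and Hmgb2 and Mcm10 were named after their values were seen.

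Titles and descriptions number the 6 h and 12 h replicates differently. By the description number, 41 of 43 pairs of parental arrays deviated together with a correlation over 0.1, and 35 correlated best with their own number. By the title number 29 of 43 had a correlation over 0.1, and 16 correlated best with their own number. By the description number all 4 pairs of 6 h and all 5 of 24 h with 0 h were over 0.1. Not all pairs of 12 h or 48 h with 0 h were.

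Alternatives were centring on the array median or on 8 housekeeping genes, leaving out genes of mean under 6, the mean of probe sets, array weights, a trended and robust prior, the fibroblast marker mean as covariate, fits of only the groups compared, leaving out each array, and both replicate blocks.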

Additional observations from a re-analysis of the deposited data

Results flagged for a closer look

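The values of 29 named members and the mean over all members were searched for a single array far from the rest of its group, in the parental groups of 4 or 5 arrays and the 4 untreated resistant lines. Of 180 groups of values 18 held such an array, where chance gives about 1 in 20 and the genes are not independent. None lay at 0 h, where the spread was widest. The mean over the members had no such array. Replicates carry the numbers of the sample titles.

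At 6 h the first array stood apart for Plk1 (12.57, the nearest other at 12.71), Top2a (12.83, nearest 12.93) and Kif11 (12.67, nearest 12.55), and the fourth for Incenp (11.26, nearest 11.36). At 12 h the first array stood apart for Cdc20 (11.23, nearest 11.53), Mki67 (12.90, nearest 12.74) and Incenp (11.27, nearest 11.41), the second for Espl1 (10.53, nearest 10.40) and the third for Cenpf (11.04, nearest 11.19). At 24 h it was the first array for Top2a (12.53, nearest 12.82), Racgap1 (11.94, nearest 11.79) and Ckap2 (10.04, nearest 10.41), the second for Cdc20 (11.38, nearest 11.52) and the third for Espl1 (10.41, nearest 10.22). At 48 h it was the second array for Cdc20 (11.20, nearest 11.48) and the third for Ndc80 (10.21, nearest 9.99). R4000 stood apart from the other untreated resistant lines for Melk (9.91, nearest 9.78) and Ect2 (11.97, nearest 11.83). The first 24 h array had the highest fibroblast marker mean of all arrays, 9.86, and the part of this in the values of Top2a, Racgap1 and Ckap2 was not tested.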

How the results depend on the processing

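No member passed the test (limma) at 6 h, at 48 h, from 24 to 48 h, in untreated resistant lines or in the difference of responses under any setting run. At 24 h against 0 h the count was 2 with housekeeping centring (both lower, against 3.46% of all genes), 1 without genes of low mean (lower, 3.31%), 3 with array weights (lower, 1.89%), 1 with a trended and robust prior (lower, 2.18%), 6 with the replicate block of the description number and 3 with that of the title number (1 higher, 7.5%, and 2 lower, 6.17%). It ranged from 0 to 3 when 1 array was left out. In settings added after seeing the data it was 6 with the description block without the fifth 0 h array (1 higher, Anln, against 8.87% of all genes, and 5 lower, against 5.55%) and 3 with that block after median centring (1 higher, 9.39%, and 2 lower, 18.1%). The description block gave 1 call at 12 h (Anln, adjusted p = 0.0447), which was lost at 0.0954 without the fifth 0 h array. The block changed no call among the members in the other comparisons of times. Array weights gave 8 calls from 12 to 24 h and 1 in treated resistant lines, Racgap1. The cause of these differences was not tested. Single values near 0 turned sign: Kif4 at 6 h without the first 0 h array (0.0054; -0.207 to 0.0054 over arrays left out), and, from 12 to 24 h, Pttg1 with median (-0.0053) and housekeeping centring (-0.0088), Cdc20 with housekeeping centring (-0.00341) and without the first 12 h array (-0.0371; -0.0371 to 0.0741 over arrays left out), and Kif20a with housekeeping centring (-0.000126) and the description block (-0.0017). Cdc25b in the difference of responses was at -0.0356 with the fibroblast covariate. Over all genes the calls at 24 h were 867 higher and 484 lower, against 2348 and 2363 with the description block, 788 and 1029 with median and 697 and 689 with housekeeping centring, and 107 and 15 with only the groups compared. From 12 to 24 h they were 5 and 2, against 901 and 896 with array weights, and at 12 h against 0 h 93 and 9, against 584 and 124 with the description block. The number of arrays limits the precision, most in the 3 treated lines. The median of the members at 24 h against 0 h lay between -0.04 and 0.07 over all settings, and from 12 to 24 h between -0.14 and -0.05. Against 0 h it lay between -0.01 and 0.10 at 6 h, 0.03 and 0.14 at 12 h, and -0.02 and 0.07 at 48 h.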
